A study of Mus musculus with 30 samples.

Results

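The comparison described here sets 3 libraries of whole heart from mice at postnatal week 1 (1W) against 3 from postnatal day 1 (P1), over all genes of one count table. These are 6 of 30 libraries in a series of 10 ages from embryonic day 10.5 (E10.5) to 8 weeks (8W), with 3 libraries at each age. Both groups were wild type and untreated, and the labels give no strain and do not say whether a library came from 1 heart or from a pool. Of 48820 rows in the table, 19280 passed the filter on low counts and were tested, and a gene was called when its adjusted p was under 0.05.

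In the days after birth the mouse heart leaves the womb's low oxygen and glucose supply for air and milk fat. Its muscle cells are known to replicate DNA once more before they withdraw from the cell cycle, and they exchange fetal isoforms of contractile and metabolic proteins for adult ones, while fibroblasts and vessels expand between them. Steroid and thyroid hormones also change around birth. P1 and 1W lie on either side of the period in which a mouse heart is known to lose its capacity to regenerate.

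The P1 libraries held 27730997 to 29898874 counts and the 1W libraries 36687572 to 45499578. Values below are CPM, counts scaled to a common library total, after edgeR's TMM scaling, and changes are log2 of 1W over P1 with the standard error of the fit. Sex-linked transcripts were unequal between the groups: all 3 P1 libraries and replicate 1 of 1W held Y-linked transcripts without Xist, and replicates 2 and 3 of 1W held Xist without Y-linked transcripts. Airway transcripts stood out in replicate 1 of P1 and a liver transcript in replicate 2 of P1, with values given further down. In whole tissue, fewer cells of a type and less RNA per cell cannot be told apart.

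Between P1 and 1W 3624 genes rose, or 18.8% of those tested, and 3273 fell, or 17%. Together 35.8% were called. At least 2-fold changes were seen in 866 rising and 1000 falling genes, and at least 8-fold changes in 48 and 92. The median log2 change of all tested genes was -0.01. Scaling by library size alone moved that median by -0.11 and gave 2507 rising and 4490 falling genes, so the balance of the directions depends on the scaling. With a term for the sex-linked transcripts 3080 genes rose and 2614 fell. Leaving out both Xist libraries left 1 library of 1W, which is assumed to vary like the other groups, and 1895 genes rose and 1279 fell.

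**Figure D1:**
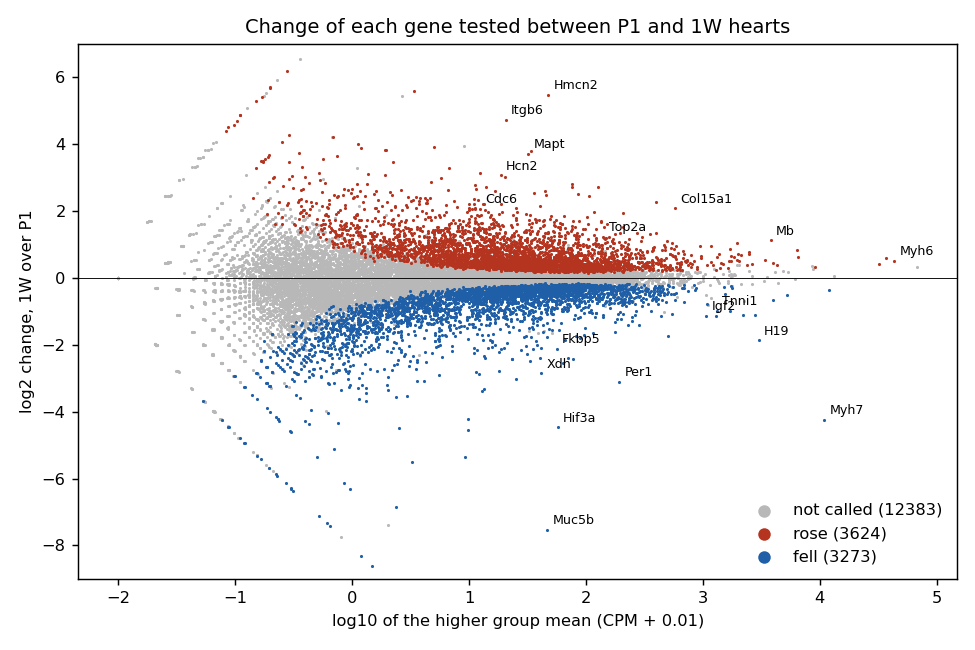
Log2 change of 1W over P1 (vertical axis) against log10 of the higher group mean in CPM with 0.01 added (horizontal axis) for each tested gene, with called genes in red (3624 rose) and blue (3273 fell). The 8 genes beyond -9 or 7 on the vertical axis are not drawn, and Hmcn2 and Itgb6 are the labelled genes with the highest rises and Myh7 and Hif3a are falls of -4.24 and -4.46 at higher levels.

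Genes of DNA replication were low at P1 and higher at 1W. Of 28 tested genes of the S phase list 25 rose and 0 fell, with a median log2 change of 1.202. Of 32 mitosis and cytokinesis genes 20 rose and 0 fell, with a median of 0.84, and of 16 centrosome genes 10 rose and 1 fell. The summed level of the S phase list was 385 to 606 CPM at P1 and 937 to 1082 CPM at 1W. Promoter sequences of 5 of the rising genes are shown first, because they carry the motifs that are known to be read by the regulators of replication and of mitosis. E2F factors are known to bind sites such as TTTCCCGC, TTTGGCGC, TTTCGCGC and TTTGCCGC in genes of DNA replication. The cell cycle genes homology region, TTTGAA, is known to be bound by complexes that act on mitotic genes. The sequences are from RefSeq on GRCm38.p6, run 250 bases before to 50 after the start of the gene, read 5′ to 3′ on its own strand, with motif matches on either strand in capitals.
Cdc6 (chr11:98907901-98908200, plus strand): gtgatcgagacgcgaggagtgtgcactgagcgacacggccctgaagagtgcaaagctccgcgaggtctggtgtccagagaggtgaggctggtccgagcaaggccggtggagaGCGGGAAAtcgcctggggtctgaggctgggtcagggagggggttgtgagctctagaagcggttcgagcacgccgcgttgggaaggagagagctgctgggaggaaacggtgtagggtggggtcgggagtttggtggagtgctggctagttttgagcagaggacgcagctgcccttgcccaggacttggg
Mcm5 (chr8:75109259-75109558, plus strand): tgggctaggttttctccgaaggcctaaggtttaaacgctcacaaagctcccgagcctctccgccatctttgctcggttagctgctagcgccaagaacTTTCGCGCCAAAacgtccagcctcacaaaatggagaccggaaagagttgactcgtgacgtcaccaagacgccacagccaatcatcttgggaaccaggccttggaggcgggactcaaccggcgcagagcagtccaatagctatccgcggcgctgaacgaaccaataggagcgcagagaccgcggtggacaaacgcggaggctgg
Orc1 (chr4:108579204-108579503, plus strand): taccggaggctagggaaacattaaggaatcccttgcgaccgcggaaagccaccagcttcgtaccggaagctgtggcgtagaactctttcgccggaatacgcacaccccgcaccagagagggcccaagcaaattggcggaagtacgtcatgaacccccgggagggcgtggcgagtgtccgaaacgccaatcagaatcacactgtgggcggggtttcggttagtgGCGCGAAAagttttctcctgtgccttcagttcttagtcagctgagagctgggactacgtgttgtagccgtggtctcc
Top2a (chr11:99024140-99024439, minus strand): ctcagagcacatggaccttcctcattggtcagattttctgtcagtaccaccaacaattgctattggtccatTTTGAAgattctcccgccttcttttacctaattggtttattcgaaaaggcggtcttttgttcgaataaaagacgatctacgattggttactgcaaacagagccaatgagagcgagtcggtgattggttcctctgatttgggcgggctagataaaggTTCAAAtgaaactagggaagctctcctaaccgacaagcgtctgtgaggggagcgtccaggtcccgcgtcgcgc
Espl1 (chr15:102296043-102296342, plus strand): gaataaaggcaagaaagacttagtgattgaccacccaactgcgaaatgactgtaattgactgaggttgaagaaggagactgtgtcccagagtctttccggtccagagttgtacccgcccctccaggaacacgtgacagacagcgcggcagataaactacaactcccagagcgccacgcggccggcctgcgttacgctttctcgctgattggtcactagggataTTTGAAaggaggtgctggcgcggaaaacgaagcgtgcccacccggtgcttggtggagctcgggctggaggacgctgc

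An E2F site was found in 38.1% of the 21 S phase genes with a promoter in the table, beside 3.77% of the 12628 tested genes with one. The TTTGAA motif was found in 76.9% of 26 mitosis genes, beside 12.4% of all. CCAAT, bound by NF-Y and searched on both strands like the others, was found in 88.5% of the mitosis genes and 38.0% of all. Among the 2680 rising genes with a promoter, 5.1% held an E2F site, 11.5% TTTGAA and 39.1% CCAAT. The high shares were thus those of the lists and not of rising genes as a whole. Motifs may overlap one another, as the E2F matches in Mcm5 do, and a match describes letters only.

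Cdc6, which loads the replicative helicase, measured 2.04, 1.71 and 4.98 CPM at P1 and 11.5, 12.5 and 12.98 CPM at 1W. All 1W libraries lay above all P1 libraries, and the log2 change was 2.08 ± 0.29 (adjusted p = 7e-06). Mcm5, a helicase subunit, rose by 1.47 ± 0.29 on the log2 scale from 15.8, 17.7 and 30.8 CPM to 53.2, 62.5 and 62.8 CPM. Orc1, of the origin recognition complex, was low throughout, at 0.758, 0.615 and 1.61 CPM and then 2.57, 2.21 and 2.71 CPM. The S phase regulators Ccne2 (log2 change 1.80 ± 0.29) and E2f1 (1.65 ± 0.33) rose as well. In Cdc6, Mcm5, Orc1, Ccne2 and E2f1 alike replicate 3 was the highest of the P1 libraries, still below every 1W library.

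Top2a, the topoisomerase of chromosome segregation, measured 50.6, 60.1 and 69.0 CPM at P1 and 128, 133 and 160 CPM at 1W. The groups did not overlap, and the log2 change was 1.23 ± 0.32 (adjusted p = 0.0048). Espl1, which encodes the protease separase, rose from 7.41, 10.4 and 11.5 CPM to 18.9, 22.8 and 24.3 CPM. Foxm1, a transcription factor of mitotic genes, rose by 1.15 ± 0.33 on the log2 scale and the proliferation marker Mki67 by 1.06 ± 0.31. Ccnb1, the mitotic cyclin, did not pass the test, at 27.2, 32.6 and 30.03 CPM against 36.5, 38.7 and 40.8 CPM (log2 change 0.37 ± 0.36, adjusted p = 0.46). The groups did not overlap, and Ccnb1 was called when the 6 libraries were fitted alone (adjusted p = 0.00546) or without replicate 3 of 2W (adjusted p = 0.00199), a library outside the comparison. Top2a, Espl1, Foxm1 and Mki67 were not called without both Xist libraries of 1W, with adjusted p from 0.104 to 0.206.

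The mitosis count moved with the libraries more than the S phase count did. With the sex-linked term 12 mitosis genes and 25 S phase genes rose. Without both Xist libraries 1 mitosis gene and 15 S phase genes rose, while the remaining 1W library lay above all P1 libraries for 29 of 32 mitosis genes and 26 of 28 S phase genes, beside 34.8% of all tested genes. Leaving out 1 library of the 6 gave 12 to 19 mitosis genes, with 12 without replicate 1 of P1 or replicate 3 of 1W and 13 without replicate 2 of P1, and 24 to 26 S phase genes. The mitosis count was 29 when the 6 libraries were fitted alone and 30 without replicate 3 of 2W.

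P1 was the lower point of a dip for these genes. Top2a averaged 288 CPM at E18.5, 59.9 CPM at P1, 140 CPM at 1W and 69.8 CPM at 2W, and its step from P1 to 1W exceeded the step from E18.5 to P1 by 3.50 on the log2 scale (adjusted p = 8.2e-05). Mcm2 averaged 97.0 CPM at E18.5, 27.8 CPM at P1, 80.0 CPM at 1W and 44.1 CPM at 2W. The 3 libraries of 2W were widely spread for these genes. These differences of steps share libraries with the main comparison.

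Genes that restrain the cycle did not move one way. Of 19 such genes 5 rose and 6 fell. Cdkn2c, an inhibitor of cyclin D kinases, rose from 14.3, 16.5 and 16.4 CPM to 30.8, 36.1 and 36.5 CPM, and Rbl1, which encodes p107, rose by 1.40 ± 0.20 on the log2 scale. Cdkn1c, an imprinted inhibitor, fell from 67.4, 57.3 and 58.5 CPM to 23.3, 24.9 and 24.3 CPM. Cdkn1a was at 33.4, 32.2 and 22.1 CPM against 26.2, 29.8 and 27.6 CPM and did not pass the test (adjusted p = 0.80). Dnmt1 and Uhrf1, which maintain DNA methylation through replication, rose by 1.04 ± 0.16 and 1.61 ± 0.38 on the log2 scale, but Uhrf1 was not called without both Xist libraries (adjusted p = 0.0763).

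Of 22 clustered histone genes 15 rose and 1 fell, with a median log2 change of 1.42. Their transcripts mostly lack a poly(A) tail and per the labels the libraries were made from poly(A) RNA, so these values cover only the part that was captured. Rn7sk, an RNA known to lack such a tail, was captured as well. Before TMM scaling it stood at 12121, 16298 and 11680 CPM at P1 and 11545, 15201 and 11666 CPM at 1W. The summed histone level was also highest in replicate 2 of each age, at 1323 CPM at P1 and 1849 CPM at 1W. The part of capture in the histone values was not tested. Hist2h3c2 measured 10.5, 14.8 and 19.9 CPM at P1 and 61.0, 99.5 and 95.6 CPM at 1W. Without both Xist libraries 2 histone genes rose.

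**Figure D2:**
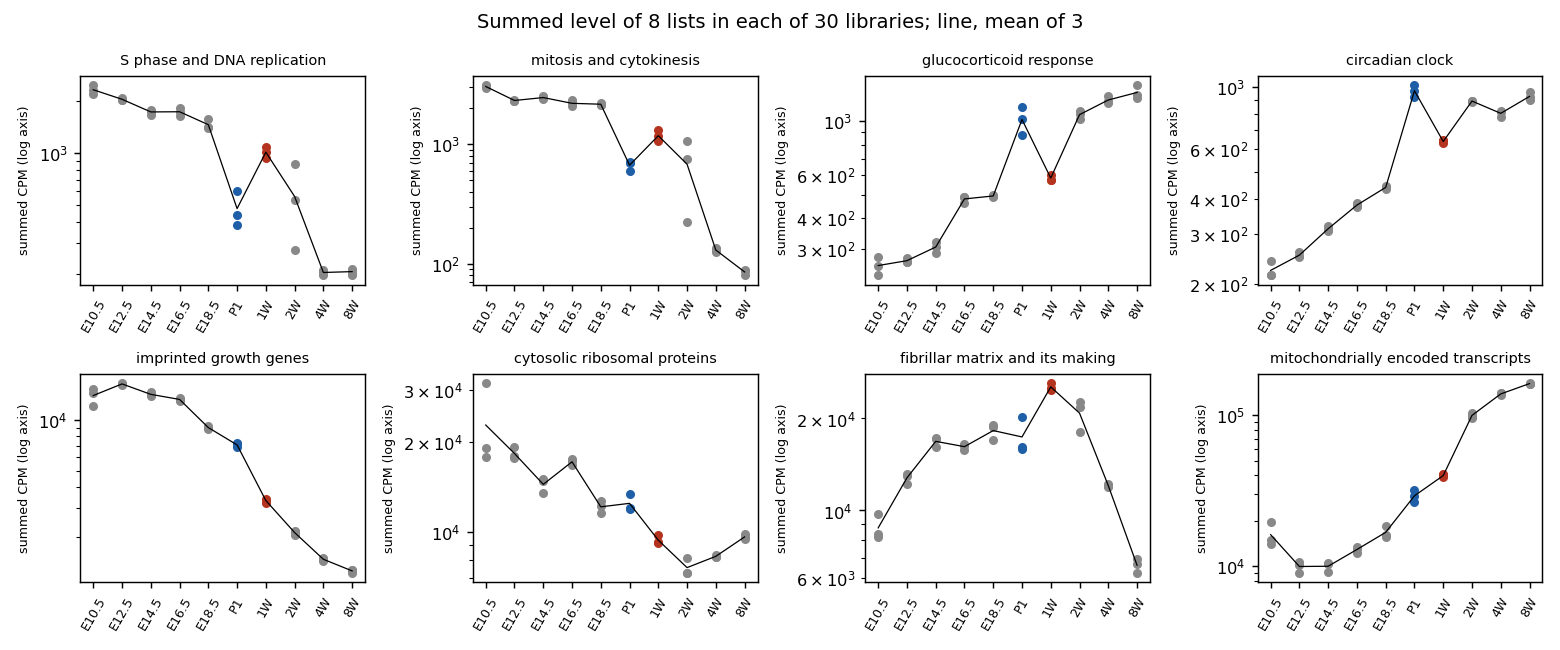
Summed CPM (log axis) of 8 gene lists in each of the 30 libraries by age, with P1 in blue, 1W in red and a line through the mean of 3. The S phase list dips at P1 (385 to 606 CPM) and is higher at 1W (937 to 1082 CPM), whereas the glucocorticoid list is higher at P1 (875 to 1142 CPM) than at 1W (575 to 601 CPM).

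Transcripts that respond to glucocorticoids were, as a summed level, lower at 1W than at P1 and at the later ages. Of 16 tested genes of that list 11 fell and 3 rose, with a median log2 change of -1.06. Their summed level was 489 to 496 CPM at E18.5, 875 to 1142 CPM at P1 and 575 to 601 CPM at 1W, so 1W stayed above E18.5. It was 1019 to 1094 CPM at 2W and 1179 to 1395 CPM over 4W and 8W. Of 19 circadian clock genes 11 fell and 1 rose, with a median of -0.40. Per1, a clock repressor that glucocorticoids are known to induce, belongs to both lists.

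Per1 measured 184, 210 and 180 CPM at P1 and 20.2, 23.4 and 22.9 CPM at 1W. It had a log2 change of -3.11 ± 0.13 (adjusted p = 4.8e-17), and P1 lay above all other ages, with means of 37.1 CPM at E18.5 and 75.2 CPM at 2W. Per2, its paralog, fell from 45.0, 47.2 and 37.1 CPM to 12.9, 13.3 and 15.9 CPM. Ciart, another clock repressor, fell by 2.89 on the log2 scale. The sources used here do not give the hour of collection, so hour and age cannot be told apart for clock genes. Without both Xist libraries 7 clock genes fell.

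Fkbp5, a chaperone that limits glucocorticoid receptor activity, measured 59.5, 82.0 and 26.8 CPM at P1 and 13.2, 11.7 and 13.7 CPM at 1W. Replicate 3 was the lowest of P1 and still above 1W, and the log2 change was -2.12 ± 0.27 (adjusted p = 2.4e-06). Zbtb16, a transcription factor, fell from 66.9, 72.3 and 50.1 CPM to 9.66, 10.2 and 12.8 CPM, and averaged 151 CPM at 2W. The metallothionein Mt2 fell by 3.38 on the log2 scale. Klf15, a regulator of amino acid and lipid use, fell from 39.5, 41.8 and 23.3 CPM to 8.28, 7.9 and 7.77 CPM and stood at 84.2 CPM at 8W.

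Several of the largest falls had the same low replicate. Hif3a, a member of the hypoxia-inducible factor family, measured 71.8, 69.5 and 30.4 CPM at P1 and 2.15, 2.51 and 3.07 CPM at 1W (log2 change -4.46 ± 0.27, adjusted p = 3.3e-11). Xdh, xanthine dehydrogenase, measured 46.2, 63.4 and 14.0 CPM and then 6.79, 5.21 and 5.15 CPM. Timp4, a metalloproteinase inhibitor, measured 31.1, 31.3 and 12.5 CPM and then 3.73, 3.14 and 2.46 CPM. Hif3a stayed low after 1W, at 1.84 CPM at 8W, while Xdh and Timp4 were higher again at 8W, at 150 and 41.8 CPM. Among 20 hypoxia targets 9 rose and 5 fell, and Vegfa, the vessel growth factor, rose from 90.5, 68.5 and 73.9 CPM to 163, 168 and 167 CPM.

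Fetal growth genes fell. Of 22 imprinted growth genes 15 fell and 1 rose, with a median log2 change of -0.77, and of 19 genes of the Igf axis and of oncofetal RNA-binding proteins 11 fell and 2 rose. H19, an imprinted noncoding RNA, measured 2821, 3148 and 3023 CPM at P1 and 780, 815 and 868 CPM at 1W. The groups stood far apart, with a log2 change of -1.87 ± 0.10 (adjusted p = 3.9e-15). Igf2, the fetal growth factor encoded beside it, fell from 1016, 1050 and 1133 CPM to 453, 521 and 491 CPM. Dlk1 fell by 2.42 and Igf2bp1, which binds Igf2 RNA, by 2.12 on the log2 scale. Igf1, which acts on postnatal growth, stood at 41.7, 42.7 and 47.0 CPM against 52.1, 50.4 and 51.3 CPM and did not pass the test (adjusted p = 0.074). It was called in the 6 libraries alone, without replicate 2 of E10.5 and without replicate 3 of P1 (adjusted p = 0.0287, 0.0375 and 0.0403).

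Ribosomal protein genes were lower at 1W in every case measured: 30 of 39 fell and 0 rose, with a median log2 change of -0.48. The groups did not overlap for 39 of 39, beside 9455 of the 19280 genes tested. Rpl32 fell from 217, 259 and 216 CPM to 138, 148 and 131 CPM, and was not called without both Xist libraries (adjusted p = 0.0646). Many of these genes have near-identical pseudogene copies, so their counts are uncertain. The count of falling ribosomal genes was 22 with the sex-linked term and 19 to 26 when 1 library was left out, lowest without replicate 3 of 1W. Fewer were called without both Xist libraries, with a median log2 change of -0.45. There the remaining 1W library was below all P1 libraries for 39 of 39, beside 34.5% of all tested genes. Muscle forms of translation genes rose instead: Rpl3l from 2.17, 2.19 and 2.22 CPM to 6.04, 8.05 and 7.86 CPM, and the elongation factor Eef1a2 by 0.89 ± 0.11 on the log2 scale.

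**Figure D3:**
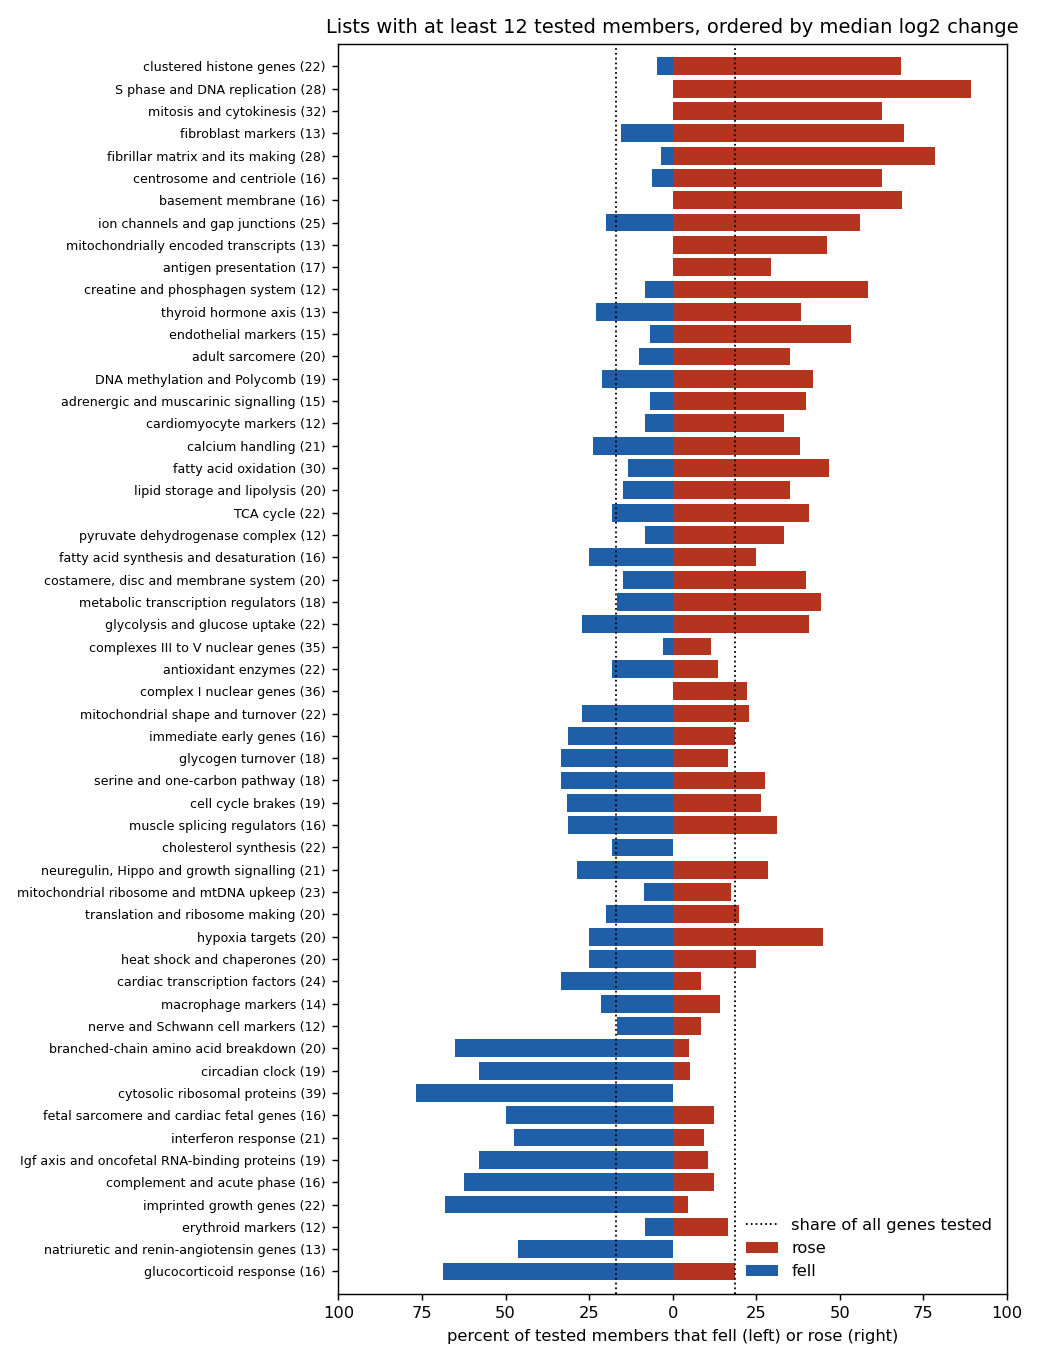
Percent of tested members that rose (red, right) or fell (blue, left) for each list with at least 12 tested members, in order of median log2 change, with the number tested in brackets. Dotted lines mark the shares of all tested genes, 18.8% rising and 17% falling. S phase genes extend farthest to the right and ribosomal protein genes farthest to the left.

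Connective tissue genes rose. Of 28 genes of the fibrillar matrix and its making 22 rose and 1 fell, with a median log2 change of 0.58, and of 16 basement membrane genes 11 rose and 0 fell. Of 13 fibroblast markers 9 rose and 2 fell. Col15a1, a basement membrane collagen, measured 113, 141 and 157 CPM at P1 and 549, 600 and 590 CPM at 1W, with a log2 change of 2.08 ± 0.13 (adjusted p = 1e-13). Its 1W libraries lay far above those of P1. Col3a1, a fibrillar collagen, rose from 3215, 4307 and 3316 CPM to 6369, 6523 and 6340 CPM. The collagen chaperone Serpinh1 rose by 0.91 ± 0.10 and the prolyl hydroxylase subunit P4ha1 by 1.00 ± 0.13 on the log2 scale. Fbn2, a fetal fibrillin, went the other way, from 454, 431 and 443 CPM to 279, 282 and 281 CPM. Postn, a matricellular protein of young fibroblasts, did not pass the test, at 925, 1085 and 1095 CPM against 1316, 1147 and 1302 CPM (adjusted p = 0.30), but it was called when the 6 libraries were fitted alone (adjusted p = 0.024) or without replicate 2 of E10.5 (adjusted p = 0.00947).

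Vessel markers rose more often than they fell. Of 15 endothelial markers 8 rose and 1 fell, and of 11 mural cell markers 8 rose and 1 fell. With library size alone 4 endothelial markers rose, 5 of each kind rose without both Xist libraries, and 5 endothelial markers rose without replicate 3 of P1. Kdr, a receptor for vascular growth factor, rose from 254, 242 and 251 CPM to 457, 471 and 483 CPM. Rgs5, a pericyte marker, rose from 149, 160 and 156 CPM to 402, 390 and 397 CPM. Of 8 lymphatic markers 2 rose and 3 fell, with a median log2 change of -0.22. Their summed level overlapped, at 240 to 279 CPM at P1 and 253 to 264 CPM at 1W. Lyve1, a lymphatic and macrophage marker, had the largest fall of that list, by 2.04 on the log2 scale. Epicardial markers fell in 8 of 11 cases, among them the mesothelial gene Msln, while Aldh1a2, which makes retinoic acid, rose from 14.9, 16.5 and 25.9 CPM to 55.5, 62.5 and 62.0 CPM. Atrial myocyte markers fell in 6 of 8 cases and 0 rose.

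The isoform exchange of the contractile apparatus was far along at 1W for myosin and less so for troponin I. Myh7, the fetal ventricular myosin heavy chain, measured 12699, 11060 and 9047 CPM at P1 and 836, 325 and 576 CPM at 1W, with a log2 change of -4.24 ± 0.24 (adjusted p = 3.9e-12). Myh6, the adult form in mice, rose from 30856, 28466 and 31758 CPM to 41544, 44471 and 43875 CPM. Of the counts of this pair, which are not corrected for length, Myh6 held 73.6% at P1 and 98.7% at 1W. The groups did not overlap, and the exact permutation test over 6 libraries gave p = 0.1, the smallest it can give.

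Tnni1, the fetal troponin I, fell from 1240, 1427 and 1279 CPM to 697, 684 and 612 CPM and then to a mean of 15.4 CPM at 2W. Its step from P1 to 1W was smaller than its next step, by 4.45 on the log2 scale (adjusted p = 2e-12). Tnni3, the adult form, did not pass the test between P1 and 1W, at 1528, 1598 and 1618 CPM against 1645, 1818 and 1734 CPM. The share of Tnni3 in the pair went from 54.6% to 72.3%.

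Several other paralog pairs moved toward the form known from adult muscle. The share of Cox7a1 in Cox7a1 and Cox7a2 went from 18.7% to 32.0%, that of the insulin-sensitive glucose carrier Slc2a4 in Slc2a4 and Slc2a1 from 75.0% to 89.6%, and that of Hk2 in Hk2 and Hk1 from 16.2% to 34.2%. Ldhb, the lactate dehydrogenase form of oxidative muscle, went from 58.8% to 48.0% of its pair with Ldha, in the other direction. Ckm in its pair with the brain form Ckb also went down without overlap, from 96.7% to 95.8%. For Actc1 with Acta1, Slc25a4 with Slc25a5 and Pgam2 with Pgam1 the libraries of the ages overlapped.

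**Figure D4:**
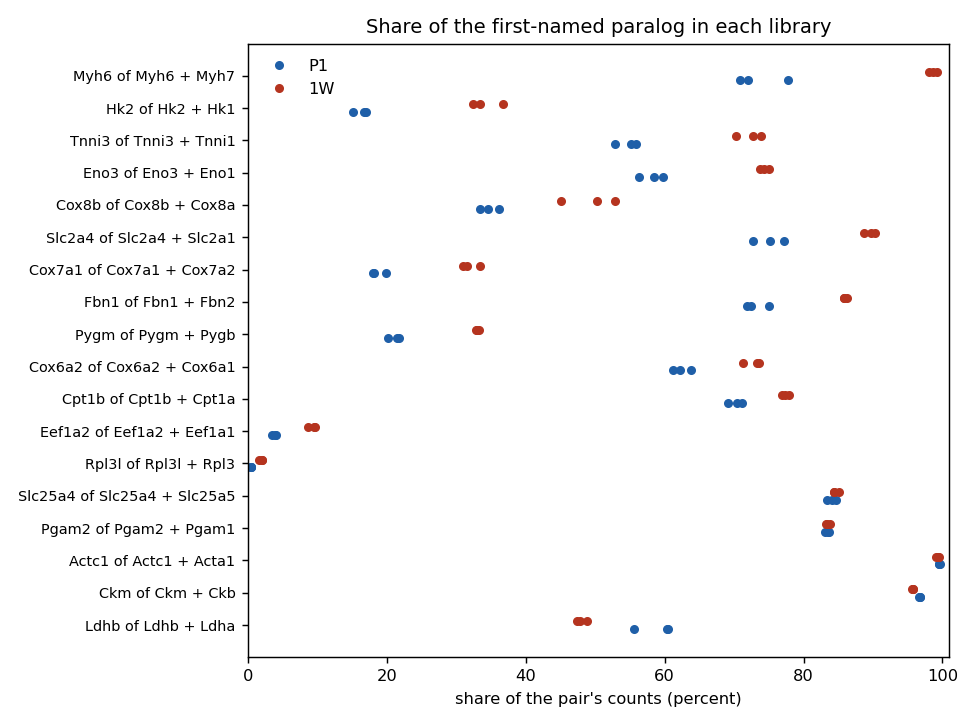
Share of the first-named gene in the counts of each of 18 paralog pairs (horizontal axis, percent), one point per library, with P1 in blue and 1W in red. Myh6 in its pair with Myh7 moves farthest, from a mean of 73.6% to 98.7%, and Ldhb moves down from 58.8% to 48.0%.

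The genes with the largest rises were mostly low at P1. Hmcn2, a hemicentin of the extracellular matrix, measured 1.12, 1.26 and 0.803 CPM at P1 and 41.2, 56.8 and 44.9 CPM at 1W (log2 change 5.49 ± 0.22, adjusted p = 1.4e-15). Itgb6, an integrin beta subunit, measured 0.626, 0.546 and 1.12 CPM and then 21.1, 20.7 and 19.9 CPM. Neither group of libraries came near the other for these genes. Tuba8, an alpha tubulin of muscle and testis, rose by 3.80 ± 0.24 and Mapt, the microtubule protein tau, by 3.72 ± 0.17 on the log2 scale. Trim72, a membrane repair protein of striated muscle, rose from 12.2, 8.98 and 11.3 CPM to 74.5, 73.1 and 79.2 CPM, and Xirp2, of the intercalated disc, from 23.1, 17.0 and 18.2 CPM to 99.0, 102 and 117 CPM.

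Channels of the pacemaker and repolarizing currents were among the rising genes. Of 25 ion channel and gap junction genes 14 rose and 5 fell, with 3 falling without replicate 3 of 1W and 2 without both Xist libraries. Hcn2, a pacemaker channel, measured 2.7, 1.84 and 2.02 CPM at P1 and 18.0, 19.9 and 17.8 CPM at 1W. Kcne1, a subunit of the slow potassium current, measured 45.4, 43.1 and 61.3 CPM and then 150, 162 and 143 CPM, and averaged 83.2 CPM at 2W and 10.6 CPM at 8W. Kcnd3, of the transient outward current, fell from 9.19, 10.2 and 5.72 CPM to 2.18, 3.39 and 2.55 CPM. Of 21 calcium handling genes 8 rose and 5 fell, and 4 rose with library size alone or without replicate 2 of P1, while 3 fell without replicate 1 of P1. Hrc, which binds calcium in the sarcoplasmic reticulum, rose by 1.33 ± 0.17 on the log2 scale, while Ryr2, the release channel, and Pln, which restrains the calcium pump, did not pass the test (adjusted p = 0.17 and 0.54). Ryr2 was called in the 6 libraries alone and without replicate 2 of E10.5 (adjusted p = 0.0358 and 0.00543).

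Genes of the thyroid hormone axis changed in both directions. Of 13 genes of that list 5 rose and 3 fell, and its summed level was 511 to 550 CPM at P1 and 489 to 503 CPM at 1W. Rxrg, a partner of nuclear hormone receptors, measured 1.58, 1.23 and 1.35 CPM at P1 and 12.6, 13.8 and 10.5 CPM at 1W. Hr, a corepressor that thyroid hormone is known to induce in brain, rose from 2.83, 3.14 and 1.99 CPM to 11.7, 11.1 and 11.1 CPM. Dio2, which activates the hormone, and the receptor gene Thrb rose by 1.28 ± 0.26 and 1.00 ± 0.23 on the log2 scale. Among the falling genes were the transcription factor gene Klf9, by a log2 change of -0.99, and the receptor partner Rxra, by -0.37.

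Genes of oxidative metabolism changed in both directions. Of 30 fatty acid oxidation genes 14 rose and 4 fell, with a median log2 change of 0.16, and 8 rose with library size alone or without both Xist libraries, and 9 without replicate 2 of 1W. Ucp3, a mitochondrial carrier, rose from 18.2, 12.3 and 12.7 CPM to 56.0, 48.2 and 42.0 CPM, and Fabp3, the fatty acid carrier of muscle, from 1289, 1414 and 1327 CPM to 1956, 2040 and 1825 CPM. Cpt1a, the fetal and liver form of the entry enzyme, fell from 290, 281 and 278 CPM to 214, 219 and 197 CPM. Cpt1b, the muscle form, and Pdk4, which holds back glucose oxidation, did not pass the test (adjusted p = 0.39 and 0.97). Both already stood above their E18.5 means of 307 and 32.2 CPM at P1, at 667 and 418 CPM.

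Among 36 nuclear genes for complex I subunits 8 rose and 0 fell, so 22.2% were called, beside 35.8% of all tested genes. The rising share alone was near the 18.8% of all tested genes. With library size alone 3 rose and 4 fell, and 3 rose without replicate 1 of P1 or replicate 2 of 1W and 5 without replicate 2 or 3 of P1 or replicate 3 of 1W. The 13 mitochondrially encoded transcripts rose in 6 cases, and mt-Nd4 went from 590, 517 and 704 CPM to 1110, 1308 and 1129 CPM. Ogdh, of the citric acid cycle, measured 908, 973 and 937 CPM at P1 and 1872, 2087 and 1862 CPM at 1W. Ckmt2, the mitochondrial creatine kinase, rose from 145, 149 and 132 CPM to 358, 368 and 335 CPM, whereas the cytosolic muscle form Ckm did not pass the test (adjusted p = 0.63). Mb, myoglobin, rose from 1598, 1800 and 1819 CPM to 3657, 3993 and 3778 CPM. Of 20 genes that break down branched-chain amino acids 13 fell and 1 rose, among them Aldh6a1 from 136, 134 and 92.9 CPM to 64.2, 55.7 and 54.3 CPM. Without both Xist libraries 3 fell.

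**Figure D5:**
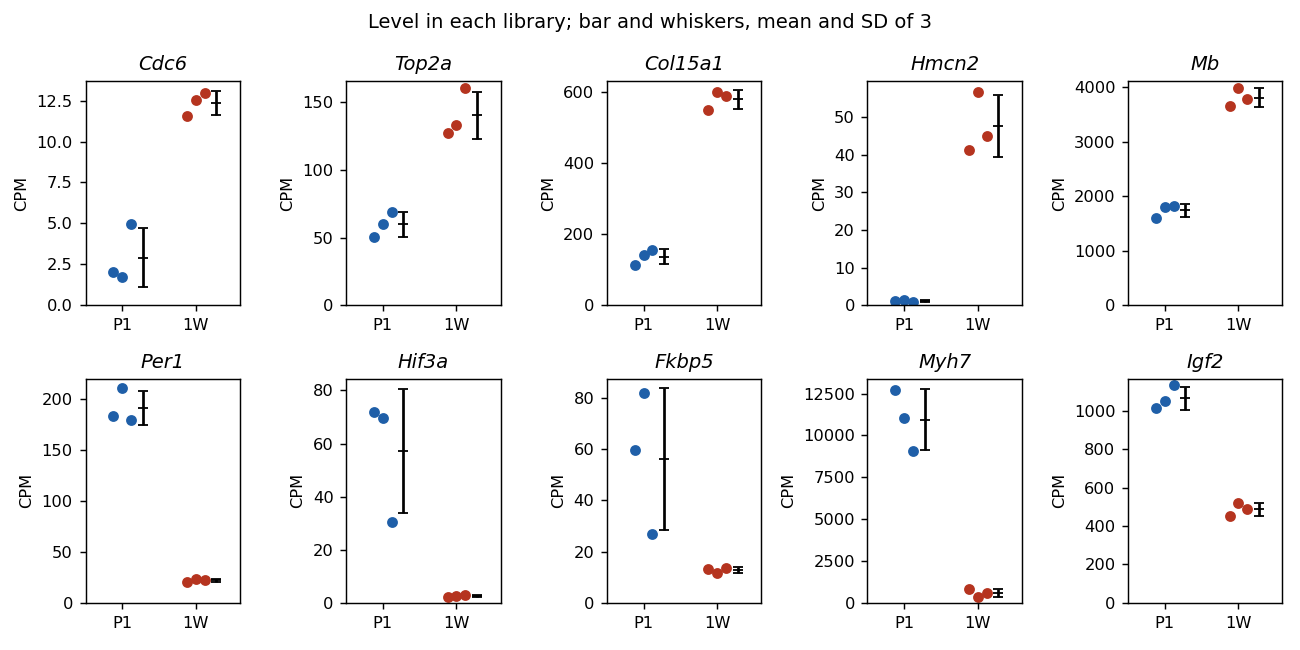
CPM in each P1 (blue) and 1W (red) library for 10 genes, with the mean and SD of 3 libraries in black beside the points and each vertical axis starting at 0. The groups do not overlap in any panel, and replicate 3 of P1 is the lowest P1 library for Hif3a (30.4 CPM) and Fkbp5 (26.8 CPM).

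With all libraries, interferon response and complement genes fell more often than they rose, but the interferon counts depended on single libraries. Of 21 interferon response genes 10 fell and 2 rose, but 6 fell with the sex-linked term. Without replicate 2 of P1 3 fell and 4 rose. Without replicate 2 or 3 of 1W 5 and 4 fell, and without both Xist libraries the median log2 change went from -0.57 to -0.21. The summed level of the list overlapped, at 153 to 176 CPM at P1 and 146 to 162 CPM at 1W. Among 17 antigen presentation genes 5 rose and 0 fell, so 29.4% were called. Among 14 macrophage markers 2 rose and 3 fell, so 35.7% were called, beside 35.8% of all tested genes. With library size alone, or without replicate 1 or 3 of P1, 2 antigen presentation genes rose. Of 16 complement and acute phase genes 10 fell and 2 rose, among them C3 from 200, 279 and 201 CPM to 71.5, 95.5 and 87.1 CPM, and 4 fell without replicate 2 of P1. Of 12 red cell genes 2 rose and 1 fell, so 25% were called, and their median log2 change was -0.79. Tfrc, the transferrin receptor, listed here with them, went against that median. It rose from 91.6, 47.4 and 110 CPM to 434, 459 and 301 CPM.

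The 3 steepest falls by the rule for named genes rested on 1 library. Muc5b, an airway mucin, measured 138, 1.4 and 0.931 CPM at P1 and 0.248, 0.226 and 0.269 CPM at 1W. Scgb3a1 and Scgb3a2, airway secretory proteins, measured 43.9 and 38.2 CPM in replicate 1 of P1 and at most 0.478 CPM in the other P1 libraries, with 0 in all 1W libraries. None of the 3 passed the test without replicate 1 of P1. Alb, the liver albumin gene, measured 0.132, 25.7 and 2.02 CPM at P1 and was not called without replicate 2. The part of carried-over tissue in other results was not tested. Without replicate 2 of P1 4 complement and acute phase genes fell, beside 10 in the main test. The mitosis count was 12 without replicate 1 of P1, 13 without replicate 2 of P1 and 12 without replicate 3 of 1W, beside 20. The S phase count was 24 to 26 with any 1 library left out.

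The step from P1 to 1W was also compared with the log2 steps on either side, which span unequal times and were not divided by time. It differed from the step from 1W to 2W in 4075 genes (21.1%) and from the step from E18.5 to P1 in 7196 genes (37.3%). These comparisons share the P1 or the 1W libraries with the main one. As a description, 964 of the falling genes had their highest mean at P1 and 428 of the rising genes had theirs at 1W. Cirbp, a cold-inducible RNA-binding protein, showed one of the strongest differences from the earlier step: it averaged 16.7 CPM at E18.5, measured 93.5, 99.3 and 102 CPM at P1 and fell to 36.3, 36.3 and 32.5 CPM at 1W.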

How the data were processed

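Poly(A) RNA of whole mouse hearts was sequenced on an Illumina NovaSeq, per the labels' protocols. Per the submitters' processing notes, STAR 2.5.3a and fastp 0.18.0 were used, with mm10 and GRCm38 as builds and no roles stated. The authors deposited estimated counts per gene (expected counts; 6.94% of values were not whole at a tolerance of 1e-06), which were rounded here. Symbols came from GENCODE M21; rows without one held 0.225% of counts. edgeR 4.0.16 (R 4.3.3) fitted all 30 libraries with a mean per age, TMM scaling, its default low-count filter and robust quasi-likelihood tests, with Benjamini-Hochberg adjustment over 19280 genes; DESeq2 1.42.0 was an alternative. The fit was tested on simulated data.

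Genes were named by rule: the 15 largest called rises and 15 largest falls among genes whose higher group averaged 10 CPM or more without overlap, 3 called members per list of at least 5 CPM, a panel, and the 10 most strongly called per difference of steps. Mcm5 and Orc1 were named through their promoters, and Rxra after its values were seen. Members and lists were chosen with earlier results of these data known. The labels do not say that libraries came from separate animals. By its sex-linked transcripts, replicate 1 of 1W was not a technical repeat of replicates 2 and 3. The P1 libraries were alike in these transcripts, which cannot tell separate animals from repeats there. The p-values thus measure the spread between these samples, part of which may be technical. Alternatives covered scaling, filters, the test, the replicate block, sex-linked transcripts and each library left out.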

Additional observations from a re-analysis of the deposited data

How the results depend on the processing

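No gene called in the main test was called the other way under any alternative. Of 249 named genes 196 kept their side of the threshold throughout, and those of them called in the main test also kept their direction. For named genes not called, a change of sign was not counted. Xist reversed, to -0.63 with the sex-linked term, where it was not called, and to -2.09 without both Xist libraries. Tested against a fold of 1.2, 1996 genes rose and 1774 fell. Without both Xist libraries of 1W, an alternative chosen after seeing the data, 1895 rose, 1279 fell, 505 fell at least 2-fold and 912 differed from the next step. Leaving out 1 of the 6 libraries gave 3025 to 3477 rising and 2464 to 2839 falling genes. Same-numbered libraries correlated by 0.05, 0.13 and 0.05 in their deviations, and differently numbered ones by -0.12 to 0.07. With 3 libraries a group these values cannot decide whether the numbers mark a pairing. The replicate block gave 3697 rising and 3326 falling genes. DESeq2 gave 3714 and 3487. Medians near 0, as for complexes I and III to V, cholesterol synthesis and glycolysis, changed sign with library size alone. Without both Xist libraries the lists with far fewer calls also included centrosome, calcium handling, complex I, citric acid cycle, epicardial, complement, interferon response and antigen presentation genes. Depth limits genes under about 1 CPM, and 3 libraries a group limit the exact test to p = 0.1.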
